A study of Homo sapiens with 9 samples.

Results

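The 306 genes described here are antisense long noncoding RNA genes that were detected on Agilent SuperPrint G3 Human GE 8x60K v2 arrays of A549 cells before and after transduction with OCT3/4, SOX2 and KLF4. They were chosen by detection. A gene entered when its RefSeq symbol ends in -AS followed by a number, and when a non-control probe for one of its RefSeq transcripts was called positive and significant and also well above background by the scanner software on at least 3 of the 9 arrays. The probe with the highest mean over the 9 arrays stood for each gene. Of 645 such genes with 844 probes on the array, 306 (47.4%) passed, out of 21743 named genes and 50599 non-control probes in all. The sense partner is the gene whose symbol remains when the -AS ending is removed, and 296 of the 306 had a partner with a probe.

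A549 is a human lung adenocarcinoma line. The study introduced the 3 factors into this line to obtain cells that resemble lung cancer stem cells. Each of 3 groups was measured on 3 arrays, and this number limits the precision of every value. Parental A549 cells received no factor and were at passages P98, P98 and P99. OSK-A549-Colony cells were A549 cells transduced by retrovirus with the pluripotency factors OCT3/4, SOX2 and KLF4 (abbreviated OSK), grown as dome-shaped colonies at passages P106, P107 and P106. OSK-A549-SN cells were the spindle-shaped cells around those colonies in the same transduced cultures, which came off first in a short trypsin digestion, also at passages P106, P107 and P106. All 3 groups share the A549 background, the factors were carried by pMXs retroviral vectors, whose output in the cells was not analysed here, and the 3 replicates of each transduced group came from separate transductions. The transduced groups differ from parental A549 in passage as well as in transduction, and these cannot be told apart.

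An antisense long noncoding RNA is transcribed from the strand opposite to a named gene, the sense partner, and overlaps it or starts close to its promoter. Some act on the partner in cis by recruiting or blocking chromatin modifiers, by competing for transcription or by pairing with its messenger RNA, others act at distant genes, and many have no known function. In lung adenocarcinoma several of them, FOXD2-AS1 among them, have been studied for their part in tumour growth.

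The labelled cell type was checked against marker genes. All 6 epithelial markers (EPCAM, CDH1, KRT7, KRT8, KRT18 and KRT19) were detected on all 9 arrays. Of the 3 alveolar type 2 markers, SFTPC was detected on all 9 arrays, SFTPB on 1 OSK-A549-Colony and 1 OSK-A549-SN array, and the regulator NKX2-1 on none. Of the 4 mesenchymal markers, VIM, CDH2, FN1 and ZEB1 were detected on all 9 arrays. Of the 6 fibroblast or mesenchymal stem cell markers, COL1A2, COL3A1, THY1 and PDGFRB were detected on no array, COL1A1 on 3 arrays and ACTA2 on 9. The endothelial marker PECAM1 was detected on no array, while CDH5 and VWF were detected on all 9 and KDR on 1. Of 3 leukocyte markers with a probe, PTPRC and CD14 were detected on all 9 arrays and CD3E on 2. No marker in these lists was called in a comparison of 2 groups, and the F test over the 3 groups called KRT19, CDH1 and CDH2. The epithelial cadherin CDH1 was 1.99-fold lower in OSK-A549-Colony against parental A549 with an adjusted p of 0.0319 in limma, short of the fold of 2 that a call needs, and the part of any marker in the antisense values was not tested.

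Values are log2 intensities relative to each array's 75th percentile, and that percentile lay between 217.5 and 270.6 intensity units. A probe was called between groups when limma gave a Benjamini-Hochberg adjusted p below 0.05 over all probes tested and a fold above 2. Between 25809 and 29317 of the 50599 probes were detected per array, and between 258 and 298 of the 306 antisense genes, the fewest on OSK-A549-Colony replicate 2 and the most on OSK-A549-SN replicate 3. Of the 306, 238 were detected on all 9 arrays. In parental A549 254 were detected on all 3 arrays and 11 on none, in OSK-A549-Colony 251 and 9, and in OSK-A549-SN 275 and 2.

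Just inside the threshold, 9 genes were detected on exactly 3 arrays. In alphabetical order, ADORA2A-AS1 was detected on 2 OSK-A549-Colony arrays and 1 OSK-A549-SN array, ANKRD34C-AS1 on the 3 parental A549 arrays, and FAM222A-AS1 on 1 array of each group. Just outside, 27 genes had a best probe detected on exactly 2 arrays, among them ACTR3-AS1 and CCNT2-AS1, each on 1 parental A549 and 1 OSK-A549-SN array, and CACNA1B-AS2 on 1 OSK-A549-Colony and 1 OSK-A549-SN array. ADORA2A-AS1 had intensities between 8.93 and 22.1, and CACNA1B-AS2 between 4.92 and 24.7. A further 63 genes were detected on 1 array and 249 on none. Of the 9 genes at the threshold, 1 (ANKRD34C-AS1) passed through a single group and so had to differ.

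In OSK-A549-Colony against parental A549, 28 of 306 antisense genes were called, 23 lower and 5 higher. That is 9.15% of them, where 3.70% of 30869 probes were called. In the lower direction the shares were 7.52% of the antisense genes and 1.99% of all probes, and in the higher direction 1.63% and 1.71%. The median log2 difference was -0.24 over the 306 antisense genes and -0.03 over all probes tested, and 220 of the 306 differences were below 0. Setting the 15 genes that were not well above background in 1 group at their bound left the median at -0.24. The brighter part of the 306, split at the median of their mean over 9 arrays, had a median of -0.21, and the dimmer part -0.27. Normexp background correction called 6 antisense genes, all lower, and gave a median of -0.11, and quantile normalization called 26, 20 of them lower, with a median of -0.16. In the same comparison the 4 mesenchymal markers had a median of 0.57 and the 6 epithelial markers -0.30, with 3 and 4 of them at an unadjusted p below 0.05, as were 9302 of the 30869 probes.

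The number of calls rested on single arrays. Without parental A549 replicate 2, without OSK-A549-Colony replicate 2 or without OSK-A549-Colony replicate 3, limma called 0 antisense genes, with 102, 95 and 100 of them at an unadjusted p below 0.05 where all 6 arrays gave 122. The calls among all probes fell as well, from 1143 to 1, 0 and 85. Without OSK-A549-Colony replicate 1 it called 1, LRP4-AS1, and 141 probes in all, and without parental A549 replicate 1 or 3 it called 30 and 23 antisense genes and 1362 and 1090 probes. The median did not depend on any 1 array in this way: it lay between -0.32 and -0.15 over the 6 fits that each left out an array.

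**Figure D1:**
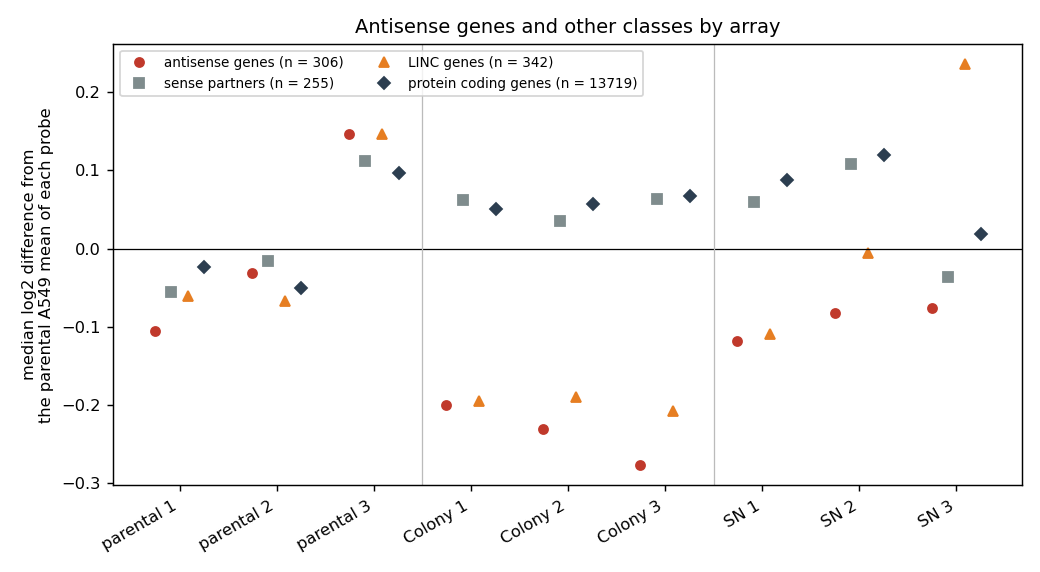
Median log2 difference from each probe's parental A549 mean (vertical axis) on each of the 9 arrays (horizontal axis) for 306 antisense genes, 255 sense partners, 342 LINC genes and 13719 protein coding genes, 1 probe a gene. The antisense medians of the 3 OSK-A549-Colony arrays lie below those of the other 6 arrays, as do those of the LINC genes, and the protein coding medians do not.

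On the 3 parental A549 arrays the antisense genes had a median difference from the parental mean of -0.11, -0.03 and 0.15. On the 3 OSK-A549-Colony arrays it was -0.20, -0.23 and -0.28, and on the 3 OSK-A549-SN arrays -0.12, -0.08 and -0.08. The OSK-A549-Colony arrays were thus the lowest 3 of the 9, with a group mean of -0.24 ± 0.04 (SD, n = 3) against 0.00 ± 0.13 for parental A549, and the OSK-A549-SN arrays (-0.09 ± 0.02) overlapped parental A549. Over the 13719 protein coding genes that passed the same detection rule the 3 group means were 0.01, 0.06 and 0.08. The 342 LINC genes had medians of -0.19, -0.19 and -0.21 on the OSK-A549-Colony arrays, and the 750 long noncoding genes without an -AS number name -0.16, -0.17 and -0.19, and in both classes these were the lowest 3 of the 9 arrays too.

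Other long noncoding classes were told apart by their symbols and taken with the same detection rule. The median log2 difference between OSK-A549-Colony and parental A549 was -0.18 over 340 intergenic genes with LINC symbols, with 18 called lower and 3 higher, and -0.29 over 91 divergent transcripts with -DT symbols, with 5 called lower and 1 higher. It was 0.01 over 36 small RNA host genes, which carry snoRNAs or microRNAs in their introns, 0.05 over 13705 protein coding genes and 0.03 over the 255 detected sense partners. Over 747 long noncoding genes without an -AS number name the median was -0.17. No test was made of the classes against each other.

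**Figure D2:**
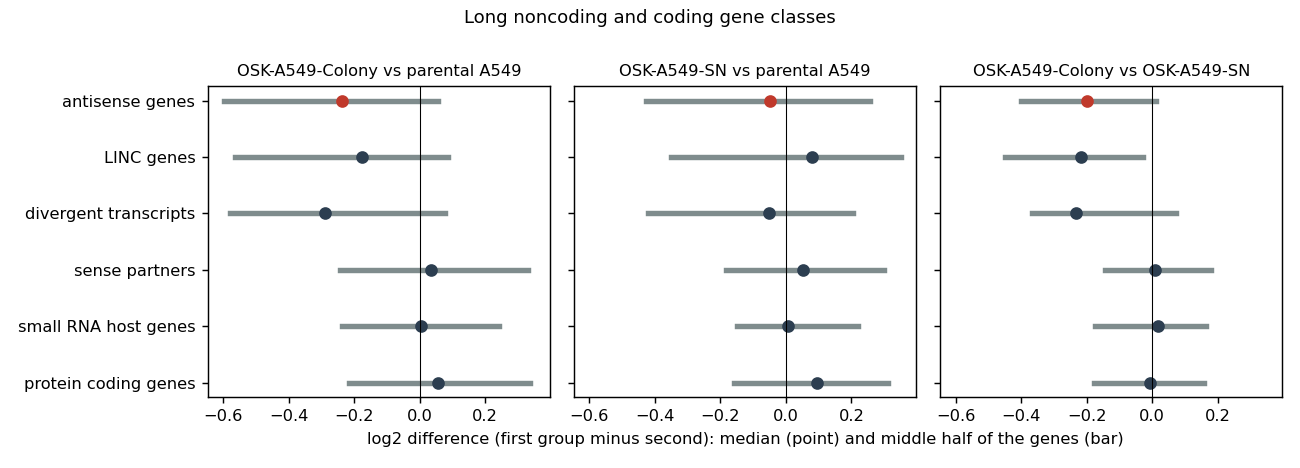
Median (point) and 25th to 75th percentile (bar) of the log2 differences, first group minus second, for 6 gene classes in the 3 comparisons. In OSK-A549-Colony against parental A549 the antisense median is -0.24 and that of the protein coding genes 0.05.

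The promoter windows of 4 antisense genes, and those of 3 sense partners that start within 1000 bases of them, are printed. STARD4-AS1, PRKAG2-AS1 and PCGF3-AS1 were called in both comparisons with parental A549 and have a window. DDX11-AS1, called by the F test alone, had the smallest F test p among pairs whose starts lie within 1000 bases and point apart. No partner of these 4 was called between 2 groups. PCGF3 is left out because its start lies 76016 bases from that of PCGF3-AS1. RefSeq windows of 300 bases (250 before the start to 50 after it, build GRCh38.p14) were found for 242 of the 306 antisense genes. For 208 of them the partner had one too, and in 60 pairs the 2 starts lay within 1000 bases and pointed apart, in 49 they lay within 1000 bases with overlapping 5′ ends, and in 99 they lay further apart. PRKAG2-AS1 and PRKAG2 start 73 bases apart, STARD4-AS1 and STARD4 309 bases apart, both with overlapping 5′ ends, and DDX11-AS1 and DDX11 start 13 bases apart. The motifs searched, on both strands, were TGCAAAT (an octamer bound by POU factors such as OCT3/4), CTTTGTT and CATTGTT (SOX factors), GGGTGTG (KLF factors), CCAAT and TATAAA. The regions are chr5:111511976-111512275 on the plus strand for STARD4-AS1, chr5:111512486-111512785 on the minus strand for STARD4, chr7:151876792-151877091 on the plus strand for PRKAG2-AS1, chr7:151877066-151877365 on the minus strand for PRKAG2, chr4:781799-782098 on the minus strand for PCGF3-AS1, chr12:31073798-31074097 on the minus strand for DDX11-AS1, and chr12:31073610-31073909 on the plus strand for DDX11. Each is written 5′ to 3′, and capitals mark the matches to the motifs.
STARD4-AS1: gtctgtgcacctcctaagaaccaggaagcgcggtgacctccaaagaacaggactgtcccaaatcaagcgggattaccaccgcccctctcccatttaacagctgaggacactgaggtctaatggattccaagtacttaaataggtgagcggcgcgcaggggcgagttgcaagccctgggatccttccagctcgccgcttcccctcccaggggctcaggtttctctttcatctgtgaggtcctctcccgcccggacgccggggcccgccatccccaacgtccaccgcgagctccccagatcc
STARD4: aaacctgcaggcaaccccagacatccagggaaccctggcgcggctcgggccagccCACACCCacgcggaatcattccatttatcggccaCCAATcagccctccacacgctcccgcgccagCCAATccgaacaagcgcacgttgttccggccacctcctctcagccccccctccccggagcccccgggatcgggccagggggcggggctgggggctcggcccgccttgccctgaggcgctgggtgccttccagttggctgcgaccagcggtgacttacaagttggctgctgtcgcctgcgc
PRKAG2-AS1: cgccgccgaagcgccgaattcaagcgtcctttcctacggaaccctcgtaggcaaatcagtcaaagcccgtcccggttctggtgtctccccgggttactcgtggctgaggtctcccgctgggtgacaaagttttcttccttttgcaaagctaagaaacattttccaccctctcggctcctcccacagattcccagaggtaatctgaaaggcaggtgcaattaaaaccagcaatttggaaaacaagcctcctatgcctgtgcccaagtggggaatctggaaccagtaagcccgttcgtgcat
PRKAG2: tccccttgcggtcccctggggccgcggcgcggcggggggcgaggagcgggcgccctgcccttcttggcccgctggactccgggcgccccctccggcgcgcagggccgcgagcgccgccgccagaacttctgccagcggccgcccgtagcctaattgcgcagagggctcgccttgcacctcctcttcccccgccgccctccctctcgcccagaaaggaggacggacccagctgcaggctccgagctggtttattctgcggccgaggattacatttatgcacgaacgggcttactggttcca
PCGF3-AS1: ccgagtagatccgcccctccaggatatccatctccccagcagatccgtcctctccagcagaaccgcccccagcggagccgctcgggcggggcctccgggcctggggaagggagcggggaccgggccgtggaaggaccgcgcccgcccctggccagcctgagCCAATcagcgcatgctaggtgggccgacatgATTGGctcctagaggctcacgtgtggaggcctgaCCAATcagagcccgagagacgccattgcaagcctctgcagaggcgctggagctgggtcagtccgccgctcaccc
DDX11-AS1: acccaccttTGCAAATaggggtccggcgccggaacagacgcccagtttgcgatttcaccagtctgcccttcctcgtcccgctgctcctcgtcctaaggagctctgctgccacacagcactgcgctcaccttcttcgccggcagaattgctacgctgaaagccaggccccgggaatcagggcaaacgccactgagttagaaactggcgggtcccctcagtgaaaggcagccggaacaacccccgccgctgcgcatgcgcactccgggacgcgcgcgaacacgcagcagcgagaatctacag
DDX11: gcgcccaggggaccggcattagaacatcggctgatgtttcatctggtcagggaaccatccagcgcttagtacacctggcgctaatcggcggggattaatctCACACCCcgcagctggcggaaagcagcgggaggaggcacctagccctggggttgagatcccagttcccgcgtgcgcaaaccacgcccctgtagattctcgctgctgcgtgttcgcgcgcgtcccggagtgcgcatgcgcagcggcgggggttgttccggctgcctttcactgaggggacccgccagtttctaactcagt

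No searched motif was present in the windows of STARD4-AS1, PRKAG2-AS1 or PRKAG2. The STARD4 window held CACACCC, the reverse of the KLF motif, and CCAAT at 2 places, PCGF3-AS1 held CCAAT or its reverse at 3 places, DDX11-AS1 the octamer and DDX11 the reverse KLF motif. Over 1 window for each of the 242 antisense genes, the octamer was present in 2.07%, CTTTGTT in 4.96%, CATTGTT in 2.89%, GGGTGTG in 8.26%, CCAAT in 32.6% and TATAAA in 5.79%. Over all 35116 windows of the table the shares were 4.20%, 5.20%, 3.33%, 7.56%, 34.6% and 11.53%. The 242 windows had a median GC content of 63.3% and 21 CpG dinucleotides, against 58.7% and 14 over all windows. These are matches of letters and were not tested for binding.

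PRKAG2-AS1, PCGF3-AS1 and ANKRD34C-AS1 were among the antisense genes called lower in both transduced groups, and these comparisons share the 3 parental A549 arrays. PRKAG2-AS1 lies at the gene of a regulatory subunit of the energy sensor AMPK. It had log2 values of 0.69, 0.69 and 0.95 in parental A549, -0.28, -0.54 and -0.72 in OSK-A549-Colony, and -0.43, -0.32 and -0.56 in OSK-A549-SN. Both transduced groups lay below every parental array and overlapped each other. The log2 differences were -1.29 ± 0.16 (SE, n = 3 per group, limma adjusted p = 0.0217) and -1.22 ± 0.15 (limma adjusted p = 0.0321). The sense gene PRKAG2 differed by 0.25 and -0.10 and was not called (limma adjusted p = 0.214 and 0.650). In bulk RNA such as this, fewer cells that make a transcript and less of it in each cell cannot be told apart.

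PCGF3-AS1, at the gene of a Polycomb RING finger protein, had log2 values of 0.11, -0.14 and 0.00 in parental A549, -1.07, -1.06 and -1.07 in OSK-A549-Colony, and -1.01, -1.06 and -1.12 in OSK-A549-SN. The transduced arrays lay together and below the parental ones. The log2 difference was -1.06 ± 0.11 (limma adjusted p = 0.0169) and -1.05 ± 0.13 (limma adjusted p = 0.0334), and a further probe for the gene gave -0.95 and -0.74 without a call. PCGF3 differed by 0.36 and 0.35 and was not called (limma adjusted p = 0.158 and 0.297).

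ANKRD34C-AS1 had log2 values of -0.87, -2.85 and -1.12 in parental A549, where it was detected on all 3 arrays. In OSK-A549-Colony the values were -5.09, -5.93 and -5.53 and in OSK-A549-SN -6.64, -6.74 and -5.50, with no array well above background. For such probes the fold is a bound, computed from the mean of the brighter group and, on each array of the dimmer group, the higher of the probe's own value and the lowest value of any probe well above background. The gene was at least 7.59-fold lower in OSK-A549-Colony and at least 8.03-fold lower in OSK-A549-SN. Because it entered the 306 through the parental arrays alone, its tests are not independent of how it was chosen, and without it the calls are 27 in OSK-A549-Colony, 5 in OSK-A549-SN and 59 by the F test over the 3 groups, where with it they are 28, 6 and 60. ANKRD34C was not detected on any array.

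STARD4-AS1 and PRR7-AS1 stood in the other direction. STARD4-AS1 lies at the gene of a sterol transport protein of the StAR family. Its log2 values were -5.66, -6.30 and -4.36 in parental A549, with no array well above background, -1.37, -1.65 and -2.41 in OSK-A549-Colony and -0.58, -1.09 and -1.20 in OSK-A549-SN. All 6 transduced arrays lay above the 3 parental ones, and the OSK-A549-SN values were the highest. It was at least 5.24-fold higher in OSK-A549-Colony (limma adjusted p = 0.0276) and at least 9.45-fold higher in OSK-A549-SN (limma adjusted p = 0.0308). STARD4-AS1 met the detection rule through the transduced arrays alone, so these tests are not independent of how it was chosen. It stays among the calls counted above. STARD4 had values between -0.42 and 0.74 on the 9 arrays with all groups overlapping, and was not called.

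PRR7-AS1, at the gene of a proline-rich membrane protein, was not well above background in parental A549, where its log2 values were -4.43, -4.40 and -4.42. In OSK-A549-Colony they were -3.48, -3.02 and -3.85 and in OSK-A549-SN -3.38, -3.30 and -3.24. Both transduced groups lay above the parental arrays. The gene was at least 1.86-fold higher in OSK-A549-SN, called (limma adjusted p = 0.0277), and at least 1.68-fold higher in OSK-A549-Colony, not called (limma adjusted p = 0.0520). The call in OSK-A549-SN was lost when arrays not well above background were raised to the lowest value of any probe that was. PRR7-AS1 also met the detection rule through the transduced arrays alone, and its tests are not independent of that choice.

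In OSK-A549-SN against parental A549 6 antisense genes were called, 4 lower and 2 higher. They made up 1.96% of the 306, and 1.55% of 32223 probes were called. The shares called lower were 1.31% of the antisense genes and 0.841% of all probes, and the shares called higher 0.654% and 0.704%, so the counts were near the background. The median was -0.05 over the antisense genes and 0.08 over all probes, and with 9 genes at their bound it was also -0.05. At an unadjusted p below 0.05 there were 90 of the 306. Normexp background correction called 5, 4 of them lower. OSK-A549-SN replicate 3 was the only array on a second slide, and on the 5 arrays of the first slide limma called 2, PAN3-AS1 among them, and the fit with slide as a block called the same 2 genes. Without parental A549 replicate 1 or 2, or without OSK-A549-SN replicate 1 or 2, it called 0, with 88, 60, 67 and 64 antisense genes at an unadjusted p below 0.05, and without parental A549 replicate 3 it called 2, STARD4-AS1 among them. Among all probes the calls fell from 498 to 44, 2, 0 and 0 in the first 4 of these fits and to 158 in the last. MAPT-AS1, at the gene of the microtubule protein tau, detected on no parental and all 3 OSK-A549-SN arrays, was at least 1.13-fold higher (limma adjusted p = 0.0566), and TENM3-AS1 (1.08) was also not called. Having met the detection rule through the transduced arrays alone, MAPT-AS1 was not tested independently of how it was chosen. Leaving out parental A549 replicate 3 also turned the sign of the median, to 0.02. The 4 mesenchymal markers had a median of 0.59 in this comparison and the 6 epithelial markers -0.08, with 3 and 1 of them at an unadjusted p below 0.05, as were 6965 of the 32223 probes.

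**Figure D3:**
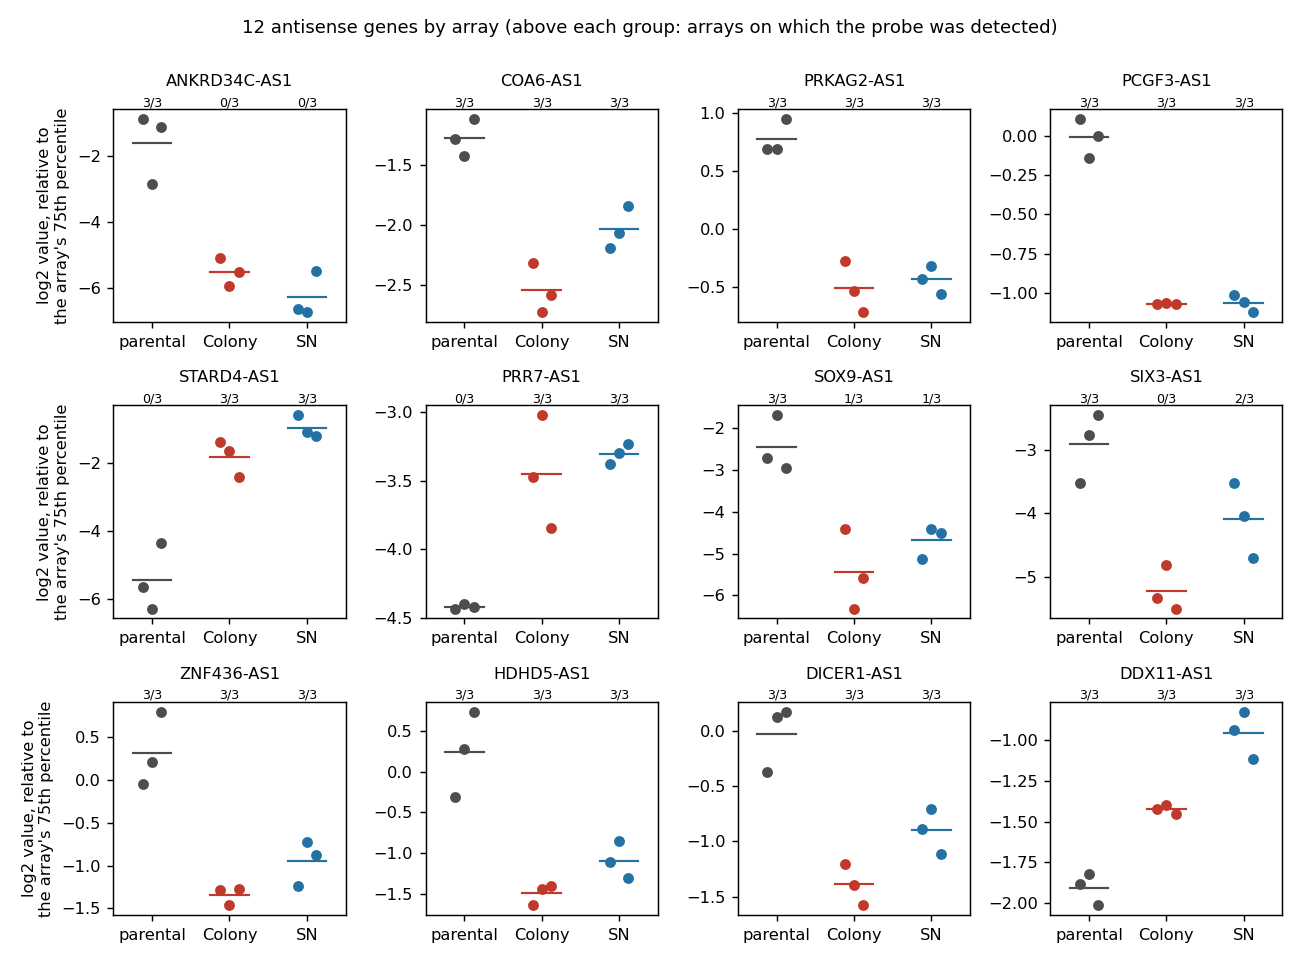
Log2 values relative to each array's 75th percentile (vertical axis) of 12 antisense genes on the 3 arrays (points) and as the mean (line) of each group. The number above each group is the count of its 3 arrays on which the probe was detected, and the parental A549 values lie above all transduced values in 9 panels and below them in the panels of STARD4-AS1, PRR7-AS1 and DDX11-AS1.

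The largest of the other decreases in OSK-A549-Colony included antisense RNAs at developmental regulators. SOX9-AS1, at the gene of a transcription factor of lung and cartilage progenitors, had log2 values of -2.73, -1.70 and -2.96 in parental A549, -4.42, -6.32 and -5.58 in OSK-A549-Colony, and -5.13, -4.41 and -4.50 in OSK-A549-SN, with 1 detected array in each transduced group. The parental arrays were the highest 3. The log2 difference was -2.98 ± 0.57 (limma adjusted p = 0.0394) in OSK-A549-Colony, and -2.22 ± 0.38, not called, in OSK-A549-SN (limma adjusted p = 0.0554). These values include arrays on which the probe was not well above background, and with each such array raised to its floor, the lowest value of any probe well above background on it, the differences were -1.89 and -1.98 (limma adjusted p = 0.0260 and 0.0316). SOX9 differed by -0.37 and -0.16 without a call.

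SIX3-AS1, at the gene of a forebrain and eye homeobox factor, had values of -3.51, -2.76 and -2.45 in parental A549, -5.33, -4.81 and -5.50 in OSK-A549-Colony with no array well above background, and -3.52, -4.03 and -4.70 in OSK-A549-SN with 2 arrays detected. OSK-A549-Colony lay below both other groups. Against parental A549 it was at least 3.09-fold lower in OSK-A549-Colony (limma adjusted p = 0.0250), and SIX3 was detected on no array. NR2F2-AS1, at the gene of the nuclear receptor COUP-TFII, had values of -1.35, -0.83 and -1.05 in parental A549, -2.26, -2.27 and -2.80 in OSK-A549-Colony and -1.96, -1.66 and -1.70 in OSK-A549-SN. The 3 groups did not overlap, and the log2 difference of -1.37 ± 0.21 in OSK-A549-Colony was called (limma adjusted p = 0.0290) while NR2F2 differed by -0.17.

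Of 48 antisense or overlapping RNAs at developmental transcription factor loci on a list, 31 had a probe and 20 were tested in OSK-A549-Colony against parental A549. Of these, 4 were called lower (SOX9-AS1, SIX3-AS1, NR2F2-AS1 and GATA3-AS1) and 0 higher, with 16 of 20 differences below 0 and a median of -0.53, where 23 of the 306 antisense genes were called lower and 71.9% of them lay below 0. At an unadjusted p below 0.05 there were 8 of the 20 in this comparison, and 122 of the 306 antisense genes. Over 14 alternative settings SIX3-AS1 was called in 8, NR2F2-AS1 in 7, SOX9-AS1 in 5 and GATA3-AS1 in 2. GATA3-AS1, detected on 2 of the OSK-A549-Colony arrays, differed by -1.04 ± 0.21 (limma adjusted p = 0.0415). In OSK-A549-SN limma called 0 of 17, with 5 at an unadjusted p below 0.05 and a median of -0.31, and in OSK-A549-Colony against OSK-A549-SN 0 of 19, with 6 at such a p and a median of -0.08, where 90 of 306 and 73 of 305 antisense genes were at such a p. Of the 15 that are among the 306, the remaining 11 were HOXB-AS3 (-0.15 in OSK-A549-Colony against parental A549), HOXD-AS2 (-0.73), FOXD2-AS1 (-0.29), FOXP4-AS1 (-0.76), ZEB1-AS1 (0.17), KLF3-AS1 (-0.61), PAX8-AS1 (-0.45), TBX2-AS1 (-0.80), MNX1-AS1 (0.20), TFAP2A-AS1 (-0.36) and NR2F1-AS1 (-0.76), none of them called in that comparison by the probe that stood for the gene. NR2F1-AS1 had 5 passing probes with differences between -1.60 and -0.18, and 2 of them were called. HOXD-AS2 was the one among these 11 with an OSK-A549-Colony range below both other groups and an F test call: its values were 0.70, 0.65 and 0.91 in parental A549, 0.22, -0.02 and -0.11 in OSK-A549-Colony and 1.00, 1.04 and 0.69 in OSK-A549-SN.

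DICER1-AS1 lies beside the gene of the microRNA-processing nuclease DICER1, and had values of -0.37, 0.13 and 0.18 in parental A549, -1.20, -1.39 and -1.58 in OSK-A549-Colony, and -0.88, -0.70 and -1.11 in OSK-A549-SN. The groups did not overlap, and the log2 difference was -1.37 ± 0.19 in OSK-A549-Colony (limma adjusted p = 0.0250), with DICER1 at 0.64 and not called (limma adjusted p = 0.154). JMJD1C-AS1, at a gene of the histone demethylase family, differed by -1.33 ± 0.20, and JMJD1C by 0.35. MYLK-AS1, at the myosin light chain kinase gene, differed by -1.32 ± 0.18, and MYLK by -0.44. LRP4-AS1, at the gene of an agrin receptor and detected on 1 OSK-A549-Colony array, differed by -1.29 ± 0.21, and LRP4 by -0.32. The LRP4-AS1 difference includes arrays not well above background, and the gene was also called with such arrays raised to their floor. For ST7-AS1, detected on 2 OSK-A549-Colony arrays, the difference was -1.77 ± 0.35 and for ST7 0.85, the latter below the fold threshold with a limma adjusted p of 0.0337.

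HDHD5-AS1 had values of -0.31, 0.28 and 0.73 in parental A549, -1.64, -1.44 and -1.41 in OSK-A549-Colony and -1.11, -0.86 and -1.31 in OSK-A549-SN. ZNF436-AS1, at a zinc finger gene, had values of -0.05, 0.22 and 0.80, then -1.29, -1.46 and -1.27, then -1.24, -0.73 and -0.88. In both, each transduced array lay below each parental one. The log2 differences in OSK-A549-Colony were -1.73 ± 0.28 (limma adjusted p = 0.0298) for HDHD5-AS1 and -1.66 ± 0.23 (limma adjusted p = 0.0250) for ZNF436-AS1, and HDHD5 and ZNF436 were at -0.16 and 0.34. The others called lower included COA6-AS1, NEBL-AS1, SLC44A3-AS1, WWC2-AS2, MAST4-AS1, PAN3-AS1, IDH1-AS1, PCOLCE-AS1 and the PCGF3-AS1 already described, and all of these but PCOLCE-AS1 had log2 differences between -1.27 and -1.06. PCOLCE-AS1 was detected on 1 parental A549 array and no OSK-A549-Colony array, and was at least 1.53-fold lower.

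Besides STARD4-AS1, the 4 genes called higher in OSK-A549-Colony were IDI2-AS1 (1.19 ± 0.23), at a gene of isoprenoid synthesis, TMEM92-AS1 (1.15 ± 0.20), detected on 2 parental A549 arrays, MCF2L-AS1 and SVIL-AS1 (1.09 ± 0.24), at the gene of the actin-binding protein supervillin. IDI2-AS1 had values of -2.80, -3.10 and -3.66 in parental A549 and -2.12, -2.01 and -1.87 in OSK-A549-Colony, with no overlap. MCF2L-AS1 was not well above background in parental A549 and at least 1.16-fold higher in OSK-A549-Colony (limma adjusted p = 0.0309), and with dim arrays raised to their floor it was not called, nor were PCOLCE-AS1 and GATA3-AS1. Since MCF2L-AS1 met the detection rule through the transduced arrays alone, its test is not independent of how it was chosen. VLDLR-AS1, at the gene of a lipoprotein receptor, and ZNF561-AS1 had larger differences (1.40 and 1.74) and were not called (limma adjusted p = 0.0552 and 0.266). VLDLR-AS1 had 4 passing probes with differences between 0.88 and 1.40, and another of them was called. For ZNF561-AS1 that difference rested on OSK-A549-Colony replicate 3, at -0.61, the other 2 replicates being at -3.87 and -3.37.

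The sense partners lay near 0 where the antisense genes lay below it. In OSK-A549-Colony against parental A549, 264 pairs had both members tested, with a median of -0.24 for the antisense genes and 0.02 for the partners. In 98 pairs the antisense gene was below 0 and the partner above it, in 91 both were below 0, in 39 both were above 0, and in 36 the antisense gene was above 0 and the partner below it. The Pearson correlation between the 2 differences was 0.02 and the Spearman correlation 0.03 over the 264 pairs, as a description across genes, which are not independent replicates and share the same 6 arrays. These correlations were 0.02 and 0.07 over 265 pairs in OSK-A549-SN against parental A549, and 0.24 and 0.23 over 259 pairs in OSK-A549-Colony against OSK-A549-SN. Of the 25 called antisense genes with a tested partner, 2 had a called partner, where 8 of the 264 partners were called: MCF2L was called lower (-1.04) where MCF2L-AS1 was at least 1.16-fold higher, and PCOLCE, a collagen-processing cofactor gene, was called lower (-1.15) together with PCOLCE-AS1. The 25 partners had differences between -1.15 and 0.85, 11 above 0 and 14 below.

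**Figure D4:**
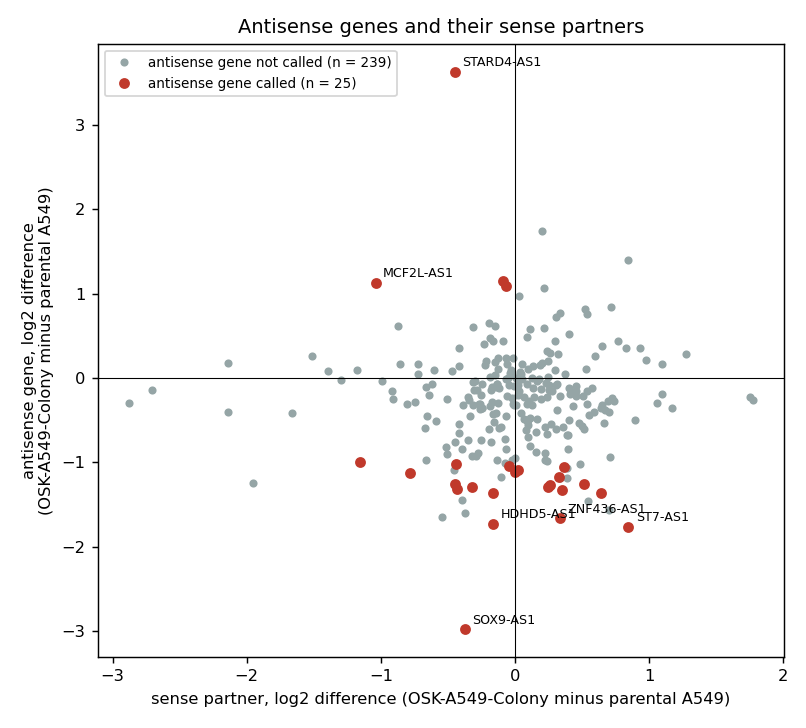
Log2 difference between OSK-A549-Colony and parental A549 for 264 antisense genes (vertical axis) and their sense partners (horizontal axis), with the 25 called antisense genes in red. The points spread along neither diagonal, Pearson's r is 0.02, and genes with only a bound are drawn at their measured difference.

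Among the 56 tested pairs whose starts lay within 1000 bases and pointed apart, the antisense median was -0.43 and the sense median 0.15, and in 27 the antisense gene was below 0 and the partner above it. Among the 45 tested pairs with overlapping 5′ ends the medians were -0.14 and 0.11, and among the 84 with starts further apart -0.19 and 0.01. Of the antisense genes in these pairs, 8 were called in the first arrangement, 6 in the second and 5 in the third. A further 5 were called among 56 tested pairs without an antisense window, and 1 among 23 without a sense window. Over all 264 tested pairs 25 antisense genes were called, where 3.70% of 30869 probes were called. In OSK-A549-SN against parental A549 the antisense and sense medians were -0.31 and 0.08 over the 56 pairs that pointed apart, 0.05 and 0.13 over the 46 with overlapping 5′ ends and -0.01 and 0.05 over the 84 further apart.

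OSK-A549-Colony against OSK-A549-SN gave no call. limma called 0 of 305 antisense genes tested and 0 of 31748 probes (0%), and 0 antisense genes under each of the 17 other settings run, with 41 to 92 at an unadjusted p below 0.05. Among all probes 139 of 26355 were called with the stricter detection filter, 32 of 31748 with normexp background correction and 9 of 31748 with all 9 arrays in 1 fit, and 0 under the other settings. At an unadjusted p below 0.05 there were 73 antisense genes, 59 lower and 14 higher in OSK-A549-Colony, and among all probes 10.7% were lower and 8.80% higher at that p. The median was -0.20 over the antisense genes and -0.06 over all probes, and 72.8% of the antisense differences were below 0. In the same comparison the median was -0.22 over 342 LINC genes, 75.7% of them below 0, -0.23 over 91 -DT genes (72.5%) and -0.20 over 748 long noncoding genes without an -AS number name (70.2%), and -0.01 over 13712 protein coding genes (51.2%). With 6 genes at their bound the antisense median was also -0.20. On the arrays of the first slide, without OSK-A549-SN replicate 3, the median was -0.15, as it was with slide as a block, and normexp background correction gave -0.09.

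Antisense genes far below 0 in OSK-A549-Colony, without overlap between the groups and well above background in the brighter group, included MAP3K14-AS1 (-1.02), WWTR1-AS1 (-0.90) and NEXN-AS1 (-0.90). LRP4-AS1, detected on 1 OSK-A549-Colony array, differed by -1.12 as measured and by -1.05 with dim arrays raised to their floor, and KCNIP2-AS1, detected on no OSK-A549-Colony array, was at least 1.43-fold lower. MAP3K14-AS1, at the gene of the NF-kappaB inducing kinase, had values of -2.40, -2.72 and -3.39 in OSK-A549-Colony and -1.78, -1.69 and -1.98 in OSK-A549-SN, while MAP3K14 differed by 0.79 in the opposite direction (limma adjusted p = 0.122). The 5 furthest above 0 among genes without overlap between the groups were TMEM92-AS1 (1.43), TTN-AS1 (1.00), SRD5A3-AS1 (0.98), VAC14-AS1 (0.90) and VLDLR-AS1 (0.89). ZNF561-AS1 (1.24) is left out of this ranking because its groups overlapped. TTN-AS1, transcribed across the titin gene, had values of -1.53, -1.58 and -1.35 in OSK-A549-Colony and -2.34, -2.77 and -2.34 in OSK-A549-SN. The NEXN-AS1 difference rested mostly on OSK-A549-SN replicate 3, at -1.37, with the other 2 at -3.08 and -2.98, and the SRD5A3-AS1 difference on OSK-A549-Colony replicate 3, at -1.69, with the other 2 at -3.57 and -3.17.

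Across the 3 groups, an F test in limma with all 9 arrays called 60 of the 306 antisense genes at an adjusted p below 0.05 (19.6%), where it called 11.4% of 33087 probes. Under the same detection rule it called 18.7% of 91 -DT genes, 16.7% of all 1056 long noncoding genes, 15.2% of 342 LINC genes, 5.56% of 36 small RNA host genes, 13.3% of the protein coding genes and 12.9% of 255 sense partners. Of the 60, 46 had their highest mean in parental A549 and 42 their lowest in OSK-A549-Colony, with 40 showing both. Among all 3778 probes called, 48.9% had the highest mean in parental A549 and 32.3% the lowest in OSK-A549-Colony. The count of 60 was 15 without parental A549 replicate 2, 18 without OSK-A549-Colony replicate 2, 23 without OSK-A549-Colony replicate 3, 35 without OSK-A549-Colony replicate 1, 31 without OSK-A549-SN replicate 2, and it came to 32 when OSK-A549-SN replicate 1 was left out. Among all probes the 3778 calls became 986, 1040, 1217, 1920, 1621 and 1684 in these 6 fits.

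Among the 12 smallest p-values of the F test were those of PCGF3-AS1, PRKAG2-AS1, STARD4-AS1, ANKRD34C-AS1, DDX11-AS1, CCDC18-AS1, COA6-AS1, MAST4-AS1, MYLK-AS1, ZNF436-AS1 and OIP5-AS1. DDX11-AS1 lies beside the gene of a DNA helicase of sister chromatid cohesion. Its values were -1.88, -1.82 and -2.01 in parental A549, -1.42, -1.40 and -1.45 in OSK-A549-Colony and -0.94, -0.83 and -1.11 in OSK-A549-SN. The 3 groups stood in 3 separate ranges, highest in OSK-A549-SN (F test adjusted p = 0.00961 in limma), and DDX11 differed by 0.09 and 0.21 from parental A549. A further DDX11-AS1 probe differed by 0.92 in OSK-A549-Colony and lay above 0 in OSK-A549-SN too. OIP5-AS1, a cytoplasmic RNA that binds the microRNA miR-7 and the protein HuR, had values of 1.77, 1.81 and 1.76 in parental A549, 1.15, 1.18 and 1.01 in OSK-A549-Colony and 1.33, 1.39 and 1.33 in OSK-A549-SN. It was lowest in OSK-A549-Colony, again with 3 separate ranges (F test adjusted p = 0.0143 in limma), and its differences of -0.67 and -0.43 from parental A549 were below a fold of 2. A further OIP5-AS1 probe had the opposite sign, 0.27 and 0.45, without a call.

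CCDC18-AS1 had values between 0.91 and 1.33 on the 3 parental A549 arrays and between 0.07 and 0.30 on the 6 transduced arrays. COA6-AS1, at the gene of a mitochondrial complex IV assembly factor, had values of -1.29, -1.42 and -1.12 in parental A549, -2.32, -2.73 and -2.58 in OSK-A549-Colony and -2.19, -2.07 and -1.84 in OSK-A549-SN. MAST4-AS1 had values of -2.22, -1.94 and -2.14 in parental A549 and between -3.39 and -2.86 on the transduced arrays. In all 3 the parental arrays were above every transduced array. MAST4, a microtubule-associated kinase gene, also lay lower in the transduced groups, by -0.78 and -0.99, without a call in either comparison (limma adjusted p = 0.0602 and 0.0738).

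Of 31 tested genes of nuclear RNA turnover and double-stranded RNA handling (exosome subunits, its cofactors, exonucleases, ADAR and microRNA processing), limma called 0 in each of the 3 comparisons, with 26 of 31 differences above 0 in OSK-A549-Colony (median 0.18) and 28 of 31 in OSK-A549-SN (median 0.24) against parental A549. Over the protein coding genes the medians were 0.05 and 0.09, with 44.8% and 39.8% below 0. The largest in OSK-A549-Colony were DGCR8 (0.81), MTREX (0.66), DICER1 (0.64) and EXOSC3 (0.58). Of 17 tested Polycomb and DNA methylation genes, UHRF1, which brings DNMT1 to newly replicated DNA, was called higher in both transduced groups (1.03 and 1.16), and TET1, a methylcytosine dioxygenase, was called lower in OSK-A549-Colony (-1.47) and not called in OSK-A549-SN (-1.11, limma adjusted p = 0.0525). BMI1 (0.73) and CBX7 (-0.74) were not called. Of 27 tested well-studied long noncoding RNAs, limma called 0 in each comparison. LINC01116 (0.81), EPB41L4A-AS1 (-0.73), OIP5-AS1 (-0.67) and KCNQ1OT1 (-0.58) had the largest differences in OSK-A549-Colony. At an unadjusted p below 0.05 the RNA turnover list held 10 genes in OSK-A549-Colony against parental A549, 4 in OSK-A549-SN against parental A549 and 1 between the transduced groups, of 31 in each, where 4653 of 13705, 3127 of 13712 and 2948 of 13712 protein coding genes were at such a p. The Polycomb and DNA methylation list held 6, 7 and 1 of 17 in the same comparisons. The list of studied RNAs held 11, 9 and 3 of 27, where 364 of 1053, 280 of 1056 and 223 of 1053 long noncoding genes were. The F test called 2 of 31 genes of the RNA turnover list, EXOSC3 and DGCR8, 3 of 17 of the Polycomb and DNA methylation list, UHRF1, TET1 and DNMT3A, and 6 of 27 studied RNAs, where it called 13.3% of the protein coding genes and 16.7% of all long noncoding genes. The medians of the studied RNAs in these 3 comparisons were -0.09, 0.02 and 0.04.

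For 68 of the 306 genes more than 1 probe passed the detection rule. In OSK-A549-Colony against parental A549 the probes of 12 of these 68 genes differed in sign, and in OSK-A549-SN against parental A549 those of 20 of 67. Of the 28 called genes, 5 had a further passing probe, and in none of the 5 did the probes differ in sign. In 1 of the 5, TMEM92-AS1, all passing probes were called (1.15 and 1.74). The second probe was not called for ZNF436-AS1 (-1.79, beside -1.66), NR2F2-AS1 (-0.95, beside -1.37) or PCGF3-AS1, and for SLC44A3-AS1 2 of 3 probes were called.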

How the data were processed

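Total RNA of 9 samples, 3 a group, was labelled with cy3 and hybridized to 1 array each. Per the file headers, the scanner files hold the processed signal of each spot as an intensity, background subtracted and detrended by Agilent Feature Extraction 11.5.1.1 and not scaled between arrays, with median spot and background intensity beside it. A deposited table gives log2 values of these arrays, and it differed from the values computed here by a constant of 0.00404 to 0.00647 an array, with 100% of probes within 0.001 of it. Each array had 62976 spots, of which 4259 were controls and 357 to 484 were outliers left out, and 0 were saturated. Intensities were averaged by probe, taken to log2 and reduced by the array's 75th percentile. Symbols came from RefSeq by transcript, and promoter windows from a RefSeq table on GRCh38.p14, while the array grid is annotated on hg19.

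Probes detected on at least 1 array of a comparison were tested with limma 3.58.1 in R 4.3.3, with Benjamini-Hochberg adjustment over all of them, in 3 pairwise comparisons and 1 F test. The code was tested on simulated data. Alternatives were normexp background correction with an offset of 50, quantile normalization, no or a stricter detection filter, slide and replicate blocks, all 9 arrays in 1 fit, the adjusted p alone, the deposited table, every detected probe, leaving out each array, and, chosen after the values were seen, raising values not well above background to the array's lowest value that was.

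The genes named were those called (the 12 furthest from 0 well above background where more), the 5 furthest above and below 0 without overlap between groups, the 12 smallest p-values of the F test, their sense partners, all antisense RNAs at developmental transcription factor loci among the 306, up to 4 of each other list, and up to 3 genes on each side of the detection threshold. The other genes called in OSK-A549-Colony, those with a called partner and those with windows printed were chosen after their values were seen. The lists were antisense RNAs at developmental transcription factor loci, studied long noncoding RNAs, nuclear RNA turnover, Polycomb and DNA methylation, and epithelial, alveolar, mesenchymal, fibroblast, endothelial and leukocyte markers. The result of 1 gene is not reported here. The members and lists were chosen with earlier results of these data known.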

Additional observations from a re-analysis of the deposited data

How the results depend on the processing

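The number of antisense genes called against parental A549 depended on the settings, and the cause was not tested. In OSK-A549-Colony against parental A549 the 28 calls were 6 with normexp background correction, 15 with no detection filter, 54 by adjusted p alone and 0 with the replicate number as a block, and 0 to 30 when leaving out 1 array. Over all probes the 1143 calls became 333, 583, 2783 and 0 under the first 4 of these, and 0 to 1362 when leaving out 1 array. In OSK-A549-SN against parental A549 the 6 calls were 13 with the stricter detection filter, 11 with all 9 arrays in 1 fit, 2 with slide as a block, 0 with the replicate block, and 0 to 2 when leaving out 1 array, and the 498 over all probes became 980, 1085, 187, 0, and 0 to 190. The 60 calls of the F test were 35 with no detection filter, 91 with the stricter filter, 18 with the replicate block, and 15 to 59 when leaving out 1 array, and the 3778 over all probes became 1978, 5820, 1194, and 986 to 3980. Raising each dim array to its floor, an alternative chosen after the values were seen, gave 29, 6 and 66 calls in place of 28, 6 and 60, with 25 and 5 of the same genes in the first 2 comparisons, and medians of -0.25 and -0.06. At an unadjusted p below 0.05 the replicate block left 99 and 74 antisense genes in the first 2 comparisons, and in OSK-A549-Colony against OSK-A549-SN it gave 0 calls, as without it, with 69 in place of 73.

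The median of the antisense genes in OSK-A549-Colony against OSK-A549-SN was -0.20, and -0.17 with dim arrays at their floor, -0.087 with normexp background correction, -0.15 with quantile normalization, and -0.22 to -0.15 when leaving out 1 array. The median for OSK-A549-Colony against parental A549 lay between -0.32 and -0.15 when leaving out 1 array, and that for OSK-A549-SN between -0.10 and 0.02, on both sides of 0.

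The replicate numbers did not pair the parental arrays with the transduced ones, and between the transduced groups, which came from the same cultures, arrays of the same number were weakly alike. Across 23759 probes, which are not independent replicates, the deviations of arrays with the same number correlated with r of -0.01, -0.05 and -0.02 between OSK-A549-Colony and parental A549, 0.15, -0.20 and -0.01 between OSK-A549-SN and parental A549, and 0.24, 0.07 and 0.14 for the transduced groups.

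For the genes named by call, rank, F test or developmental list, and their sense partners, no called value changed sign under the alternatives run for them. The further genes called in OSK-A549-Colony, such as NEBL-AS1 and PAN3-AS1, were not followed in this way. The adjusted p alone and every detected probe were not among these alternatives. Of the values of these named genes and partners under the alternatives, 3507 kept their direction and side of the threshold, 193 lost a call, 24 gained one and 116 uncalled values changed sign. Symbols from the scanner files were not run as an alternative, and slide as a block was not run for OSK-A549-Colony against parental A549, whose 6 arrays share 1 slide. Of the 306 genes, 68 were not well above background on every array, where the signal over background limits the values.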
